A study of Mus musculus with 19 samples.

Results

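Notch signalling genes were followed in RNA-Seq data from the suprarenal abdominal aorta (SRA) of mice infused for 24 h with saline or with angiotensin II (Ang II), the vasoactive peptide used to induce abdominal aortic aneurysm in this model. The 10 genes were taken by name from the 20408 genes of the table. They are the receptors Notch1, Notch2, Notch3 and Notch4, the ligands Jag1, Jag2 and Dll1, and the target genes Hey1, Heyl and Hes1. All 10 were in the table, and each of the 10 had at least 10 normalized counts in each of the 19 mice. None of them was therefore lost to the filter on low values.

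All mice were ApoE-/- males on a C57BL6 background, labelled as used at 8 weeks of age on a regular chow. All of them carried SMA-CreERT2, a tamoxifen-inducible Cre recombinase under the smooth muscle α-actin promoter, and all received tamoxifen. In the IKKβ-/- mice (SMA-CreERT2 IkkbFlox/Flox ApoE-/-), Cre removes the kinase IKKβ from vascular smooth muscle cells (VSMCs), and the cells of the wall that do not express Cre keep the gene. The IKKβ+/+ mice (SMA-CreERT2 ApoE-/-) had no floxed allele. The 4 groups were 5 saline-infused and 5 Ang II-treated IKKβ+/+ mice, and 4 saline-infused and 5 Ang II-treated IKKβ-/- mice. Osmotic pumps delivered the saline or Ang II, and the methods of the study give the Ang II dose of the sequenced mice as 1000 ng/min/kg, where the labels give 500 to 1000.

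Notch receptors are single-pass membrane proteins that are activated by ligands on a neighbouring cell. Ligand binding exposes the receptor to cleavage by an ADAM protease and then by γ-secretase, and the freed intracellular domain enters the nucleus and joins the DNA-binding protein RBPJ and a coactivator of the Mastermind family to switch on genes of the Hes and Hey families. In arteries, Notch1 and Notch4 with Dll4 and Jag1 are known from the endothelium, and Notch2 and Notch3 with Heyl from VSMCs and pericytes, where Notch3 supports the contractile state. The comparisons ask how Ang II moved these genes in the first day, and whether the loss of IKKβ in VSMCs, the kinase that activates canonical NF-κB, moved them with saline or with Ang II.

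The reads counted on genes were 11382573 to 19906694 a mouse. Values are normalized counts, the reads of a mouse divided by its size factor. Ikbkb, the gene that Cre removes, had 533 ± 78.9 normalized counts in IKKβ-/- mice (SD, n = 9; 430.2 to 672.0) and 699.7 ± 66.8 in IKKβ+/+ mice (SD, n = 10; 594.3 to 790.8), and the ranges overlapped. All 8 smooth muscle markers and all 9 endothelial markers were above 0 in every mouse. The 9 endothelial markers (Pecam1, Cdh5, Kdr, Tek, Tie1, Vwf, Erg, Emcn and Esam) summed to 22579 to 37917 normalized counts in saline-infused IKKβ+/+ mice and 13046 to 25086 in Ang II-treated IKKβ+/+ mice. The same sum was 13973 to 29818 in saline-infused and 8496 to 27587 in Ang II-treated IKKβ-/- mice, with the lowest value in mouse X2383. Mitochondrial genes took 5.99 to 9.07% of the values in saline-infused and 10.1 to 14.1% in Ang II-treated IKKβ+/+ mice, against 8.89 to 38.7% and 7.88 to 37.2% in the corresponding IKKβ-/- mice. In whole tissue, fewer cells of a type and less RNA per cell cannot be told apart. Mouse numbers run in a separate block in every group, and a batch cannot be told apart from the groups.

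Per kilobase of exon, the levels of the 10 genes in saline-infused IKKβ+/+ mice spread from 546 normalized counts per kilobase for Heyl to 24.8 for Jag2. Heyl, a transcriptional repressor of the Hey family, was followed by Hes1 at 286 ± 85.0 (SD, n = 5), Jag1 at 243 ± 36.9, and Notch2 at 191 ± 22.4 normalized counts per kilobase. The ranges of each of these and its next neighbour overlapped, and the lowest Notch2 value lay above the highest value of the next gene, Notch3. Notch3 at 114 ± 36.2, Dll1 at 110 ± 43.2, Notch1 at 88.6 ± 17.7 and Notch4 at 68.5 ± 13.6 normalized counts per kilobase formed a run of overlapping neighbours. Hey1 at 39.5 ± 2.43 and Jag2 at 24.8 ± 4.35 normalized counts per kilobase stood below them without overlap.

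**Figure D1:**
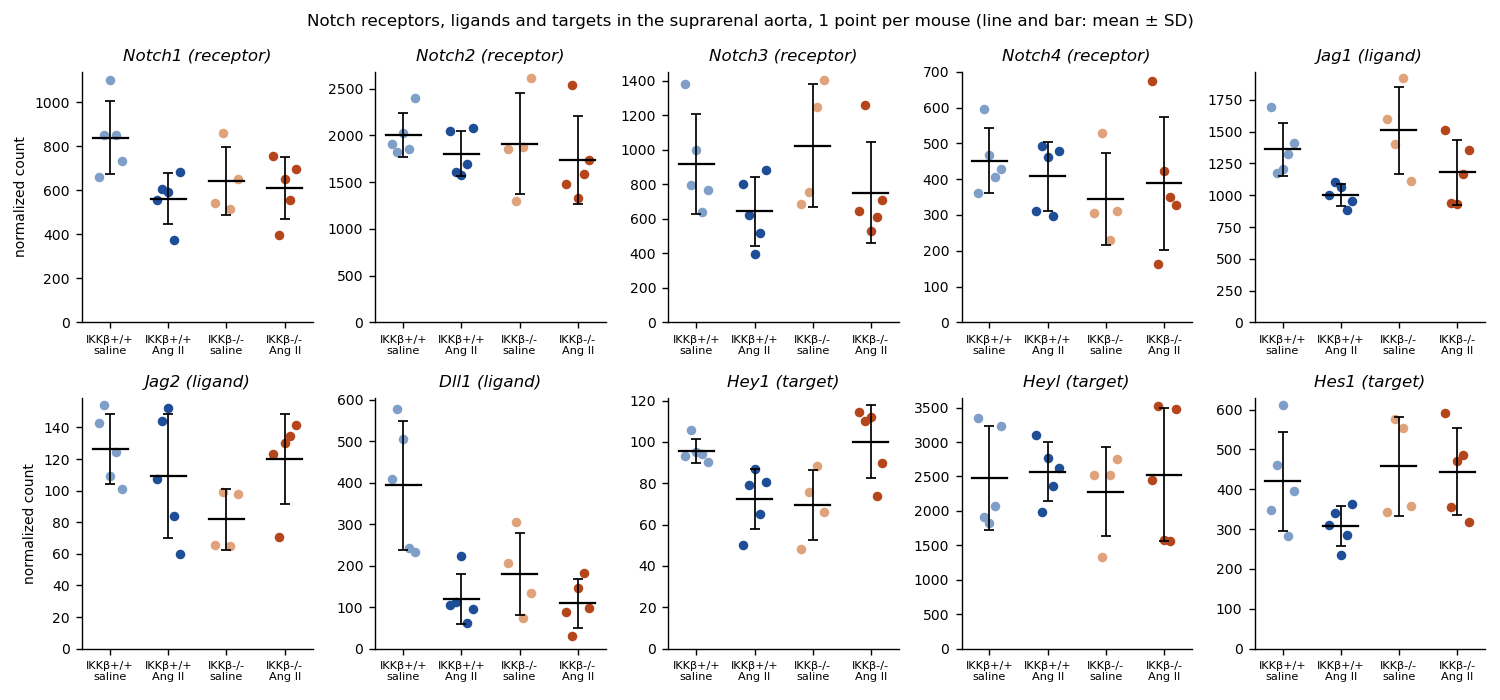
Normalized counts of the 10 genes in each mouse (points), with the group mean and SD (line and bar), for the 5, 5, 4 and 5 mice of the 4 groups on axes that start at 0. Dll1 was at 231.9 or more in every saline-infused IKKβ+/+ mouse and at 222.7 or less in every Ang II-treated IKKβ+/+ mouse, and Hey1 was at 90.1 or more and at 86.7 or less in the same groups.

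In IKKβ+/+ mice, Ang II lowered 2 of the 10 genes, the ligand Dll1 and the receptor Notch1, and raised none. A gene was called when its adjusted p was under 0.1 and its fold change over 1.2, and by this rule 8.66% of the 14845 genes tested were called in this comparison, 643 higher and 643 lower. The median difference over the 10 genes was -0.42 on the log2 scale, beside 0.01 over all genes tested, and 9 of the 10 lay below 0. In 3 of the 10 genes, Dll1, Jag1 and Hey1, the 2 groups did not overlap, against 8.42% of all genes tested.

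Dll1 (ENSMUSG00000014773.13, chromosome 17 of GRCm38, 15367354 to 15376872) encodes a Delta-type ligand. Its normalized counts were 410.0, 577.2, 506.6, 242.1 and 231.9 in the 5 saline-infused IKKβ+/+ mice and 105.0, 113.1, 222.7, 62.1 and 94.4 in the 5 Ang II-treated IKKβ+/+ mice. Every Ang II-treated value lay below every saline value, with 222.7 and 231.9 as the nearest values. The mean went from 394 ± 155 to 119 ± 60.9 (SD, n = 5 each), and Dll1 fell by 1.74 ± 0.45 (SE) on the log2(normalized count + 1) scale, 3.35-fold lower, with a limma adjusted p (Benjamini-Hochberg) of 0.0341. Without mouse X2358, which had the lowest Dll1 value of the Ang II-treated IKKβ+/+ mice and the lowest endothelial marker sum among them, the difference was -1.54 and the limma adjusted p (Benjamini-Hochberg) 0.108. With the mean log2 level of the endothelial markers in the fit, an alternative chosen after the data were seen, the difference was -1.11 with a limma adjusted p (Benjamini-Hochberg) of 0.0810.

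The upstream sequence of Dll1 is shown since it is the gene with the largest Ang II difference of the 10. RefSeq gives 2 start sites for it, and the 250 bases before the outer one (chr17:15376933-15377182, minus strand of GRCm38.p6) lie outside the deposited gene, in an exon of the opposite-strand long noncoding gene A930024N18Rik. Capitals mark matches to GGG, any 5 bases and CC, a κB-like pattern of the kind that NF-κB dimers bind.
Dll1: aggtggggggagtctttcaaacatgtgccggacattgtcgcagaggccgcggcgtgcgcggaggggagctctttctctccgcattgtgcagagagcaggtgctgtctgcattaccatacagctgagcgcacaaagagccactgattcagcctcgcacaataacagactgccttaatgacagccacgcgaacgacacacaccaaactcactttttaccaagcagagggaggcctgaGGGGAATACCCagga
The 2 matches overlap and begin 15 and 14 bases before the start site. The 250 bases before the inner start site (chr17:15375824-15376073) lie inside the deposited gene and are not shown. They held 1 match, which begins 81 bases before that site.

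The ligand Jag1 (ENSMUSG00000027276.7, chromosome 2, 137081456 to 137116644), a Jagged-type ligand of endothelium and VSMCs, was at 1691.7, 1175.0, 1204.5, 1327.3 and 1409.1 in saline-infused IKKβ+/+ mice and at 998.2, 1103.6, 1063.0, 883.8 and 952.2 in Ang II-treated IKKβ+/+ mice. The groups did not overlap. The difference of -0.44 ± 0.15 (SE, log2 scale) missed the threshold narrowly, with a limma adjusted p (Benjamini-Hochberg) of 0.102, and it was called in 5 of 7 other fits, among them edgeR and DESeq2 on the recovered reads. Leaving out each mouse in turn made it a call in 6 of 19 cases, and the 19 differences ran from -0.49 to -0.36. Among these cases were X2380, X2383, X2384, X2406 and X2409, IKKβ-/- mice that are not in this comparison. Without any one of them the difference stayed at -0.44. Only the spread shared by all groups and the adjustment over all genes changed there. Over the mean of both genotypes, in which 12.7% of all genes tested were called, Jag1 fell by 0.40 ± 0.11 (SE, log2 scale) with a limma adjusted p (Benjamini-Hochberg) of 0.0292. Dll1 was the other gene of the 10 called over both genotypes, and fell by 1.25 ± 0.33 (SE, log2 scale) with a limma adjusted p (Benjamini-Hochberg) of 0.0209. Both calls were made with each of the 19 mice left out in turn, and with the endothelial marker level in the fit. Jag1 itself moved little with the endothelial markers within groups (Pearson's r = 0.10, Spearman's rho = 0.01, 19 mice).

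Jag2 (ENSMUSG00000002799.6, chromosome 12, 112907819 to 112929776), the other Jagged-type ligand and the lowest of the 10 genes per kilobase, showed no such difference in IKKβ+/+ mice. It was at 143.1, 154.0, 109.3, 124.4 and 101.2 with saline and at 107.1, 144.1, 152.5, 84.1 and 59.6 with Ang II, and the groups overlapped. With IKKβ deleted it was at 65.6, 99.0, 64.9 and 98.0 with saline and at 122.9, 70.6, 130.0, 134.9 and 141.4 with Ang II. There, 4 of the 5 Ang II-treated mice lay above all saline-infused mice, and the 5th, X2383, lay among them. The Ang II difference was -0.27 ± 0.25 in IKKβ+/+ and 0.53 ± 0.26 in IKKβ-/- mice (SE, log2 scale), and neither was called, nor was the difference between these effects (0.80 ± 0.36, limma adjusted p by Benjamini-Hochberg 0.420). Without X2383 the IKKβ-/- difference was 0.71 with a limma adjusted p (Benjamini-Hochberg) of 0.121.

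Of the receptors, Notch1 was the one called in IKKβ+/+ mice. Notch1 (ENSMUSG00000026923.15, chromosome 2, 26457903 to 26516663) was at 662.8, 851.1, 1103.2, 851.6 and 732.5 with saline and at 555.9, 608.4, 593.5, 372.6 and 684.8 with Ang II. Only 1 Ang II-treated mouse, at 684.8, reached into the saline range. Notch1 fell by 0.58 ± 0.19 (SE, log2 scale) with a limma adjusted p (Benjamini-Hochberg) of 0.0855. This call was lost without any single one of the mice X2350, X2358, X2372, X2373, X2376 and X2378, with differences of -0.44 to -0.66 over all 19 mice left out in turn. With the endothelial marker level in the fit the Notch1 difference was -0.29 with a limma adjusted p (Benjamini-Hochberg) of 0.215. Notch1 in IKKβ-/- mice was at 543.4, 859.6, 517.1 and 652.4 with saline and at 754.1, 395.3, 650.8, 555.6 and 696.7 with Ang II, and the difference was -0.08 ± 0.20 (SE, log2 scale). The difference between the effects in the 2 genotypes was 0.50 ± 0.28 (SE, log2 scale) and was not called, with a limma adjusted p (Benjamini-Hochberg) of 0.495.

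The 250 bases before the RefSeq start of Notch1 (chr2:26503823-26504072, minus strand of GRCm38.p6) are shown as those of the second gene called. They lie within an intron of the longest Gencode transcript of Notch1, which starts farther upstream. Capitals mark the same κB-like pattern.
Notch1: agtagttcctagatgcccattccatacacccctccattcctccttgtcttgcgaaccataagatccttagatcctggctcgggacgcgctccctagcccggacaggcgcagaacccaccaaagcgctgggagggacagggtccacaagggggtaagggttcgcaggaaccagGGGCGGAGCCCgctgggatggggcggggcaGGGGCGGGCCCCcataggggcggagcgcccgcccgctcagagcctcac
Its 5 matches overlap in 2 runs, which begin 78 and 48 bases before the start site. This pattern was found on either strand in 45.8% of the 32851 RefSeq windows of this length, so a match is common. Of the 10 genes, 7 had a window: Notch2, Notch3 and Notch4 held 2, 5 and 2 matches, and Jag1 and Jag2 none. The RBPJ core TGGGAA, found in 21.6% of all windows, and the AP-1 site TGACTCA, found in 4.46%, had no match in the windows of these 7 genes.

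Notch4 (ENSMUSG00000015468.14, chromosome 17, 34564268 to 34588503), the endothelial receptor, was at 452 ± 89.8 with saline and 408 ± 96.1 with Ang II in IKKβ+/+ mice, and at 344 ± 128 and 388 ± 186 in IKKβ-/- mice. Its groups overlapped in every comparison. Notch2 (ENSMUSG00000027878.11, chromosome 3, 98013527 to 98150361) had the most normalized counts of the receptors, and its groups were not called apart in any comparison. Its 4 group means lay between 1734 ± 473 and 2004 ± 235, and its 95% interval for the Ang II difference was -0.51 to 0.20 in IKKβ+/+ and -0.51 to 0.24 in IKKβ-/- mice (log2 scale).

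Notch3 (ENSMUSG00000038146.8, chromosome 17, 32120820 to 32166852), the receptor of VSMCs and pericytes, had like differences in both genotypes, and neither was called. It was at 1380.9, 796.3, 995.7, 637.1 and 769.1 with saline and at 800.1, 621.2, 397.1, 515.9 and 882.6 with Ang II in IKKβ+/+ mice. In IKKβ-/- mice it was at 687.2, 753.2, 1246.7 and 1401.3 with saline and at 646.9, 1258.8, 528.3, 608.6 and 709.5 with Ang II, where the highest value came from X2383. The groups overlapped in both genotypes. The differences were -0.51 ± 0.27 and -0.45 ± 0.28 (SE, log2 scale), and over both genotypes -0.48 ± 0.19 with a limma adjusted p (Benjamini-Hochberg) of 0.126. Without X2383 the difference over both genotypes was -0.58, with a limma adjusted p (Benjamini-Hochberg) of 0.0437, and it was also called without X2359 (-0.55) or X2401 (-0.57). With the endothelial marker level in the fit, Notch3 was called in IKKβ+/+ mice (-0.81, limma adjusted p by Benjamini-Hochberg 0.0784) and over both genotypes (-0.57, limma adjusted p by Benjamini-Hochberg 0.0308). In that fit the Notch3 difference was smaller in IKKβ-/- than in IKKβ+/+ mice, so the genotypes were less alike there.

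**Figure D2:**
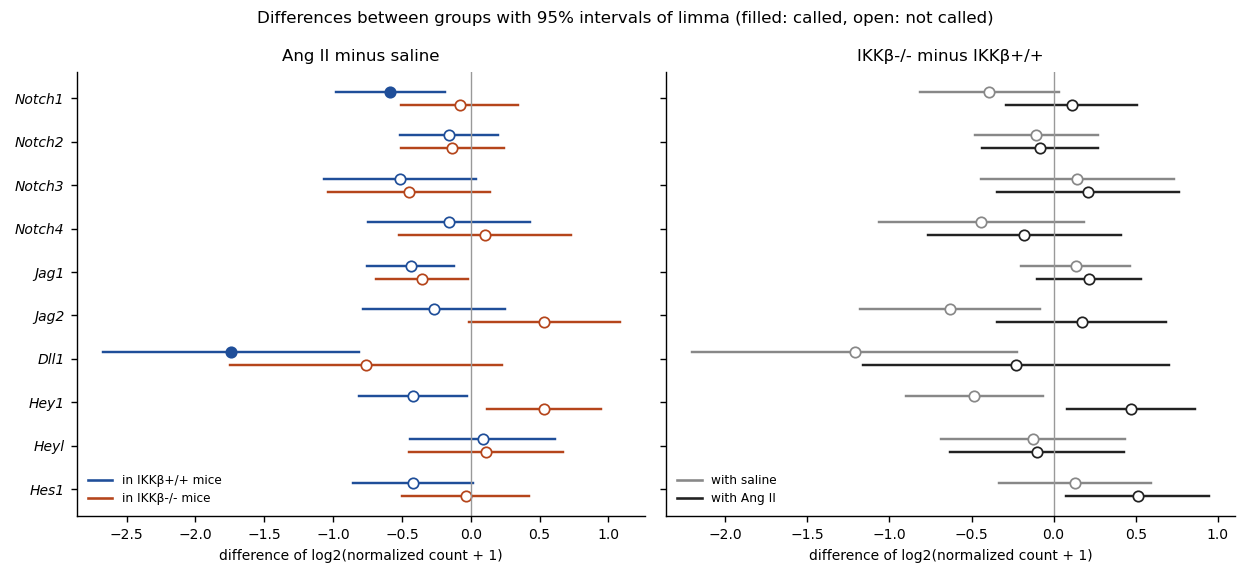
Differences of log2(normalized count + 1) for the 10 genes, Ang II minus saline in each genotype (left) and IKKβ-/- minus IKKβ+/+ with each infusion (right), with 95% intervals of the limma fit. Filled points mark the calls, which are Dll1 at -1.74 and Notch1 at -0.58 in IKKβ+/+ mice, and all other points are open.

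Among the targets, Hey1 (ENSMUSG00000040289.8, chromosome 3, 8663359 to 8667256), a repressor of the Hey family induced by Notch, had Ang II differences of opposite sign in the genotypes. In IKKβ+/+ mice it was at 93.2, 105.6, 95.2, 94.0 and 90.1 with saline and at 50.3, 79.0, 86.7, 65.0 and 80.5 with Ang II, and the groups did not overlap. The IKKβ-/- mice had 48.3, 75.9, 88.3 and 66.0 with saline and at 114.6, 110.3, 112.0, 73.9 and 90.0 with Ang II, and 4 of the 5 Ang II-treated mice lay above all saline-infused mice. The Ang II difference was -0.42 ± 0.19 in IKKβ+/+ and 0.53 ± 0.20 in IKKβ-/- mice (SE, log2 scale), and neither was called. The difference between these effects, 0.95 ± 0.27 (SE, log2 scale; 95% interval 0.38 to 1.53), had a limma adjusted p (Benjamini-Hochberg) of 0.256. Calls in that comparison were 0% of all genes tested by limma, where 1654 genes had an unadjusted p under 0.05, against 3 genes by edgeR and 279 by DESeq2. Hey1 was among the DESeq2 calls (0.97, DESeq2 adjusted p by Benjamini-Hochberg 0.0482) and not among those of edgeR (0.95, edgeR adjusted p by Benjamini-Hochberg 0.199). All 10 genes had a difference between the effects above 0, with a median of 0.32 beside 0.00 over all genes tested. Those of Notch2, Heyl, Notch3 and Jag1 were close to 0, at 0.02, 0.02, 0.07 and 0.08. Without X2383, Notch2, Notch3 and Heyl lay below 0, at -0.12, -0.14 and -0.12. Without X2403 the same genes were at -0.15, -0.06 and -0.22. The differences of the 10 genes share the same mice, and none of the 10 was called.

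Heyl (ENSMUSG00000032744.4, chromosome 4, 123233556 to 123249875), the most abundant of the 10 per kilobase, showed no difference beyond its spread. Its group means were 2478 ± 748 and 2570 ± 424 with saline and Ang II in IKKβ+/+ mice, and 2281 ± 646 and 2524 ± 966 in IKKβ-/- mice. The 95% interval of the Ang II difference was -0.44 to 0.62 in IKKβ+/+ and -0.45 to 0.67 in IKKβ-/- mice (log2 scale), which leaves room for a change of over 1.5-fold in either genotype. Hes1 (ENSMUSG00000022528.8, chromosome 16, 30064384 to 30067796), a repressor of the Hes family that many signals besides Notch induce, was at 348.7, 462.1, 610.6, 283.9 and 396.1 with saline and at 310.6, 340.5, 234.7, 284.7 and 363.8 with Ang II in IKKβ+/+ mice. The groups overlapped and the difference was -0.42 ± 0.21 (SE, log2 scale), with a limma adjusted p (Benjamini-Hochberg) of 0.265. In IKKβ-/- mice the Hes1 means were 457 ± 124 and 444 ± 109.

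In IKKβ-/- mice Ang II moved none of the 10 genes past the threshold, where 5.29% of all genes tested were called and 2636 genes had an unadjusted limma p under 0.05. This share rests on an estimate of the spread that all groups share. With only the groups compared in the fit, 1904 of the 14845 genes tested were called in IKKβ+/+ mice and 295 in IKKβ-/- mice. In IKKβ-/- mice edgeR called none of the 10, and DESeq2 called Hey1 (0.56, DESeq2 adjusted p by Benjamini-Hochberg 0.0826). The median difference was -0.06 beside 0.00 over all genes tested, with 6 genes below 0, and no gene of the 10 separated the groups, against 5.29% of all genes tested. Dll1 was at 207.5, 305.5, 73.9 and 133.5 with saline and at 88.7, 29.4, 146.9, 183.1 and 97.7 with Ang II. The Dll1 groups overlapped, with a difference of -0.76 ± 0.47 (SE, log2 scale), and the difference between the effects in the 2 genotypes was 0.98 with a 95% interval of -0.38 to 2.34 (limma adjusted p by Benjamini-Hochberg 0.567). An Ang II effect on Dll1 that differs between the genotypes was therefore not shown.

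Between the genotypes none of the 10 genes was called. With saline, 5.47% of all genes tested were called, and 3 of the 10 genes had an unadjusted limma p under 0.05, all with lower values in IKKβ-/- mice. Dll1 was at 180 ± 99.9 in saline-infused IKKβ-/- mice (SD, n = 4) against 394 ± 155 in IKKβ+/+ mice (SD, n = 5), a difference of -1.21 ± 0.47 (SE, log2 scale) with a limma adjusted p (Benjamini-Hochberg) of 0.168. Jag2 (-0.63 ± 0.26) and Hey1 (-0.48 ± 0.20) did not overlap between the genotypes, as was so for 8.76% of all genes tested, and their limma adjusted p (Benjamini-Hochberg) were 0.192 and 0.190. With only the saline groups in the fit, Dll1 and Jag2 were called, with limma adjusted p (Benjamini-Hochberg) of 0.0936 and 0.0906. With the endothelial marker level in the fit the differences were -0.30 for Dll1 and -0.25 for Jag2, and -0.41 for Hey1.

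With Ang II, 0.128% of all genes tested were called between the genotypes (19 genes), and all 10 genes overlapped between the groups, where 1.54% of all genes tested did not. Hes1 (0.51 ± 0.21) and Hey1 (0.47 ± 0.19) had the largest differences (SE, log2 scale), both toward IKKβ-/- mice, with limma adjusted p (Benjamini-Hochberg) of 0.281 and 0.274. Over the mean of both infusions 7.24% of all genes tested were called and none of the 10, with Hes1 at 0.32 ± 0.15 and Dll1 at -0.72 ± 0.33 (SE, log2 scale) as those with an unadjusted limma p under 0.05. These genotype comparisons reuse the mice of the Ang II comparisons.

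Within groups, some of the 10 genes varied with the endothelial markers and others against them. With the group means taken out, the mean log2 level of the 9 endothelial markers went with Notch4 (Pearson's r = 0.87), Notch1 (r = 0.85), Dll1 (r = 0.77) and Jag2 (r = 0.63) over the 19 mice, and against Notch2 (r = -0.71), Heyl (r = -0.65) and Notch3 (r = -0.61). Spearman's rho was 0.82, 0.84, 0.66 and 0.61 for the first set and -0.71, -0.68 and -0.49 for the second. After the group means were taken out, X2383 and X2403 lay farthest from the median marker level. Without these mice, Pearson's r was 0.76, 0.77, 0.60 and 0.46 for the first set and -0.45, -0.50 and -0.43 for the second. Hes1, Hey1 and Jag1 lay between 0.10 and 0.31. These are descriptions of the same 19 libraries, which share size factors, and relations over the 10 genes were not tested. Of the 9 endothelial markers, 1 was called lower with Ang II in IKKβ+/+ mice and 7 lay below 0, with a median difference of -0.53 (log2 scale). In IKKβ-/- mice 1 of them was called higher with Ang II and 7 lay below 0, with a median difference of -0.19 (log2 scale). The part of the endothelial markers in the Ang II differences was not tested beyond the fit with their level as a covariate.

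**Figure D3:**
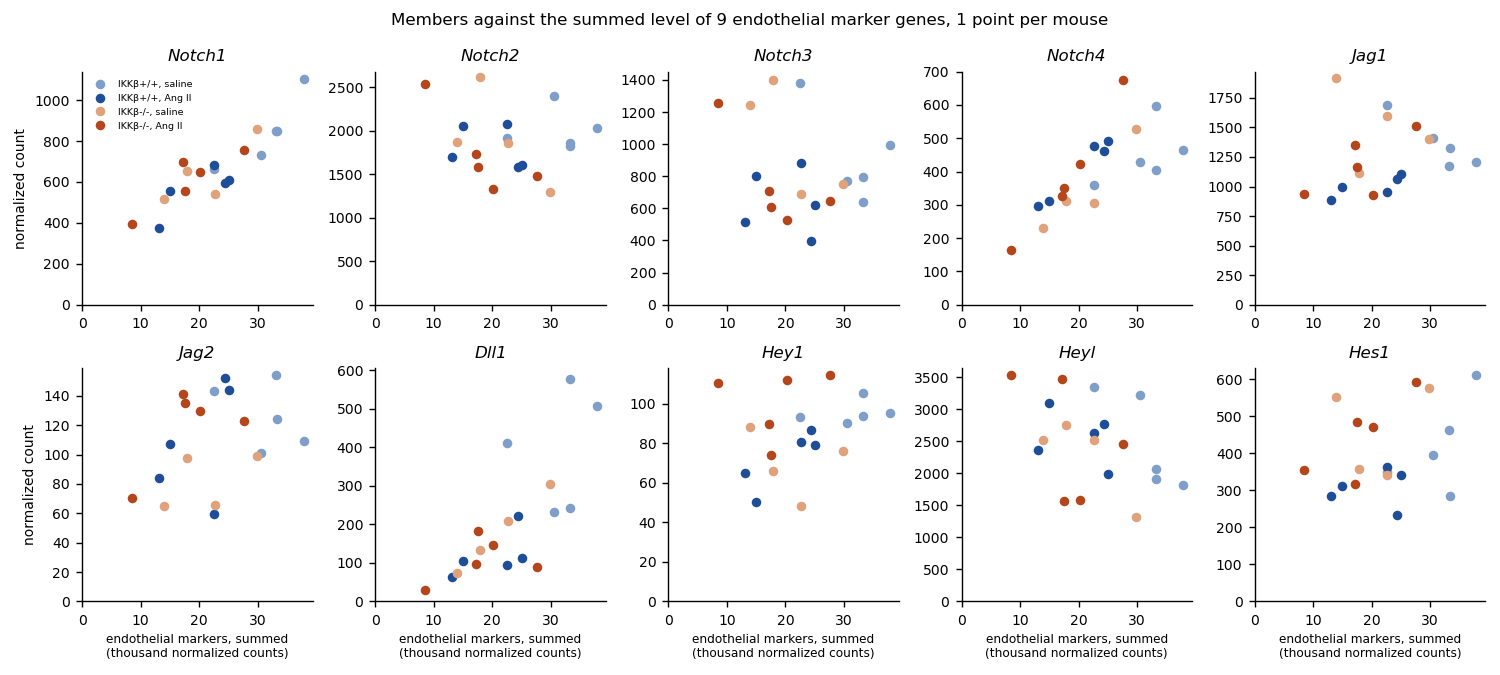
Normalized counts of each gene (y axis) against the summed normalized counts of 9 endothelial markers (x axis), 1 point per mouse, coloured by group. Notch1, Notch4 and Dll1 climb with the marker sum, and mouse X2383, at 8496 summed counts, has the lowest Notch4 and Dll1 values (164.3 and 29.4) and a high Notch3 value (1258.8).

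Among the 45 pairs of the 10 genes, Notch1 and Notch4 were the most alike within groups (r = 0.80) and Notch2 and Dll1 the least (r = -0.65), and 25 pairs lay above 0. Notch2 went with Heyl (r = 0.71) and with Notch3 (r = 0.69), and Notch3 with Heyl (r = 0.52). The mean log2 level of the 8 smooth muscle markers had an r of 0.52 with Notch3, 0.37 with Notch2 and 0.30 with Heyl. Their sum was 334569 to 446231 in saline-infused and 464324 to 647800 in Ang II-treated IKKβ+/+ mice, without overlap. In IKKβ-/- mice the sum was 435198 to 593177 with saline and 309864 to 553760 with Ang II, with overlap and a lower mean with Ang II.

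**Figure D4:**
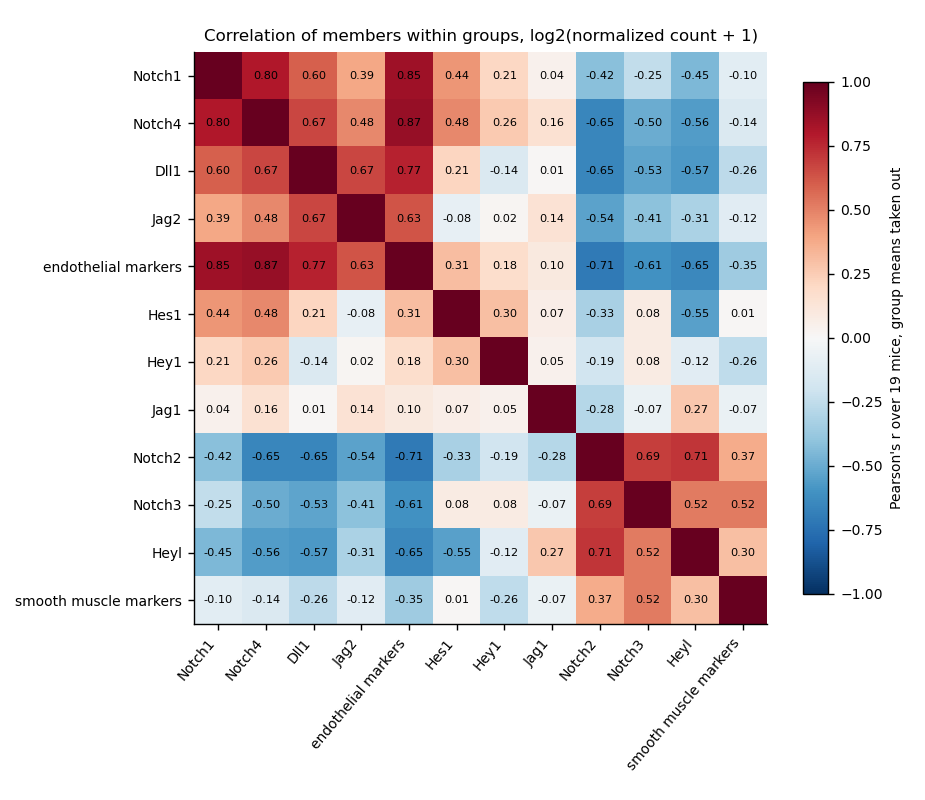
Pearson's r of the log2 levels over 19 mice after the group means were taken out, for the 10 genes and the mean levels of 9 endothelial and 8 smooth muscle markers. Notch1, Notch4, Dll1 and Jag2 have r of 0.63 to 0.87 with the endothelial markers and of 0.39 to 0.80 among themselves, and Notch2, Notch3 and Heyl have r of 0.52 to 0.71 among themselves.

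The genes most like each of the 10 across all 19 mice, by Pearson's r among the 14845 genes tested, included known endothelial genes for 4 of them. For Notch4 they were Esam (0.92) and Cdh5 (0.91), which encode endothelial junction proteins, and for Dll1 Tek (0.92), the angiopoietin receptor, and Fgfr3 (0.90). Esam, Cdh5 and Tek are on the endothelial list. For Notch1 they were Arhgap31 (0.93) and Sox7 (0.90), an endothelial transcription factor, and for Jag2 Robo4 (0.84), an endothelial receptor, and Gimap3 (0.74). For Notch3 they were Parm1 (0.93) and Fry (0.81), for Notch2 Sorl1 (0.87) and Usf3 (0.87), and for Heyl Lrrc75b (0.85) and Kcnh2 (0.85), a potassium channel. For Jag1 they were Pggt1b (0.87) and Snai2 (0.84), a repressor of epithelial genes, for Hey1 Mgme1 (0.80) and Kbtbd13 (0.77), and for Hes1 Dynlt1f (0.77) and Snapc3 (0.76). These values include the differences between groups.

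Of 57 other genes of the pathway that were listed, 51 were in the table and 50 were tested, since Dlk1 did not pass the filter on low values. In IKKβ+/+ mice Ang II lowered 6 of the 50 and raised none, beside 8.66% called among all genes tested, with a median difference of -0.08 beside 0.01. The 6 included 3 genes of receptor processing. Adam10, the main protease of the ligand-dependent cut, fell by 0.50 ± 0.12, Adam17, a related protease, by 0.38 ± 0.12, and Aph1b, a γ-secretase subunit, by 0.54 ± 0.15 (SE, log2 scale), with limma adjusted p (Benjamini-Hochberg) of 0.0214, 0.0678 and 0.0480. The others were Pofut1, which adds the O-fucose that ligand binding needs (-0.42 ± 0.12), Dtx3l, a Deltex-family ubiquitin ligase (-0.65 ± 0.15), and the target Hey2 (-0.60 ± 0.14). Adam10 was at 2358.6 ± 256 with saline and 1671 ± 241 with Ang II, and the groups did not overlap. The calls of Adam10, Dtx3l and Hey2 were made with each of the 19 mice left out in turn. Those of Adam17, Aph1b and Pofut1 were each lost without X2350 or X2358, when 3 of the 50 genes were called. Calls among all genes tested then fell from 1286 to 428 or 444. The Adam17 call was also lost without any one of X2370, X2372, X2373, X2376 and X2378, the Pofut1 call without X2372, X2373 or X2378, and the Aph1b call without X2376. With the endothelial marker level in the fit the Aph1b difference was -0.35, with a limma adjusted p (Benjamini-Hochberg) of 0.141.

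Hey2, the closest relative of Hey1 and known from arterial endothelium and VSMCs, was at 1638.5, 1456.9, 1355.2, 1487.8 and 1426.7 with saline and at 651.2, 1259.5, 1049.8, 950.7 and 1031.7 with Ang II in IKKβ+/+ mice. The groups did not overlap, and the limma adjusted p (Benjamini-Hochberg) was 0.0180. In IKKβ-/- mice the Hey2 means were 1543 ± 269 and 1367 ± 127, and the difference between the effects, 0.44 ± 0.20 (SE, log2 scale), had a limma adjusted p (Benjamini-Hochberg) of 0.424. Dll4, the Delta-type ligand of arterial endothelium, was at 69.2, 68.3, 75.8, 100.6 and 80.5 with saline and at 18.2, 54.4, 37.3, 22.0 and 49.7 with Ang II in IKKβ+/+ mice. The Dll4 groups did not overlap, but its difference of -1.21 ± 0.45 (SE, log2 scale) was not called, with a limma adjusted p (Benjamini-Hochberg) of 0.128. It was called by DESeq2 (DESeq2 adjusted p by Benjamini-Hochberg 0.0680), with only these groups in the limma fit (adjusted p by Benjamini-Hochberg 0.0335) and by limma without X2406 (adjusted p by Benjamini-Hochberg 0.0632). X2406 is a saline-infused IKKβ-/- mouse outside this comparison, and without it the Dll4 difference stayed at -1.21. Rbpj, which carries the signal to DNA, was level across the 4 groups, with means of 681 ± 67.3 to 742 ± 85.3 and a 95% interval of -0.23 to 0.24 for the Ang II difference in IKKβ+/+ mice (log2 scale).

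In IKKβ-/- mice 1 of the 50 genes was called with Ang II, beside 5.29% of all genes tested. Maml2, a Mastermind coactivator, was at 1731.4, 1865.7, 2156.5 and 1640.8 with saline and at 1438.9, 1412.8, 843.1, 969.9 and 934.4 with Ang II, and fell by 0.75 ± 0.17 (SE, log2 scale) with a limma adjusted p (Benjamini-Hochberg) of 0.0189. In IKKβ+/+ mice Maml2 was at 1195 ± 205 and 1203 ± 191. The same saline-infused IKKβ-/- mice also set Maml2 apart from saline-infused IKKβ+/+ mice (0.64 ± 0.17, limma adjusted p by Benjamini-Hochberg 0.0576), so that both calls rest on these 4 mice. This genotype call was lost without any one of X2370, X2372, X2373, X2376, X2403 and X2406, and with the endothelial marker level in the fit (0.51, limma adjusted p by Benjamini-Hochberg 0.160). The difference between the Ang II effects in the 2 genotypes was not called for any of the 50 genes. The Maml2 call with Ang II was made with each mouse left out in turn, and the count in IKKβ-/- mice was then 2 without X2350, X2356, X2385 or X2401, 3 without X2409 and 5 without X2380. Calls among all genes tested went from 785 to 901, 828, 521 or 455, to 988 and to 1038 in these cases. In the same comparison all 4 adipocyte markers tested were called higher with Ang II, with a median difference of 4.37 (log2 scale). The 5 adipocyte markers in the table, Adipoq, Plin1, Fabp4, Cidec and Lep, summed to 1020 to 4117 normalized counts in saline-infused and 2299 to 23923 in Ang II-treated IKKβ-/- mice. Their part in the differences of the Notch pathway genes was not tested.

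With saline, 4 of the 50 genes were called between the genotypes, 2 higher and 2 lower in IKKβ-/- mice, a share near the 5.47% called among all genes tested. Beside Maml2, Snw1, a part of the activating complex at RBPJ, was higher by 0.39 ± 0.09, and Furin, the protease that matures the receptors, and Adam17 fell by 0.53 ± 0.14 and 0.54 ± 0.12 (SE, log2 scale), with limma adjusted p (Benjamini-Hochberg) of 0.0494, 0.0563 and 0.0475. Without X2373, X2403 or X2406 none of the 50 was called in this comparison, without X2370 it was 1, and without X2350 or X2409 it was 7 or 10. Calls among all 14845 genes tested moved alike. They went from 812 to 112, 66 or 24, to 185, and to 938 or 1726 in these cases. With Ang II none of the 50 was called between the genotypes by limma, against 2 by DESeq2, and 9 had an unadjusted limma p under 0.05. Leaving out X2356 gave 2 calls there, and X2380 or X2383 gave 1. Calls among all genes tested went from 19 to 553 without X2356, and to 285 or 116 without X2380 or X2383. Over the mean of both infusions 6 were called, beside 7.24% of all genes tested, with Furin (-0.50 ± 0.09), Ncstn (-0.28 ± 0.08) and Adam17 (-0.28 ± 0.09) lower, and Snw1 (0.30 ± 0.06), Tle2 (0.65 ± 0.18) and Cir1 (0.37 ± 0.11) higher in IKKβ-/- mice (SE, log2 scale). The count was 1 without X2406, 2 without X2373 and 3 without X2403, and the Furin call was made with each mouse left out in turn. Calls among all genes tested fell from 1075 to 356, 410 and 588 without X2406, X2373 and X2403. With each of the 19 mice left out in turn, the Adam17 call was lost in 12 cases and the Cir1 call in 8. With Ang II, Adam17 was at 825 ± 121 in IKKβ+/+ and 812 ± 111 in IKKβ-/- mice, so its difference lay in saline-infused mice. These were at 1066 ± 53.5 and 737 ± 95.3, and the saline-infused IKKβ+/+ mice also enter the Ang II call of Adam17. Ncstn is the γ-secretase subunit nicastrin, and Tle2 and Cir1 are corepressors. Over the mean of both genotypes Ang II lowered 7 of the 50 (Hey2, Maml2, Aph1b, Aph1c, Dtx3l, Adam10 and Nrarp) and raised 1, the acetyltransferase Kat2a (0.34 ± 0.09), a share near the 12.7% called among all genes tested (840 higher and 1047 lower). Aph1c, a γ-secretase subunit, fell by 0.87 ± 0.27 and Nrarp, a feedback inhibitor of Notch that Notch itself induces, by 0.84 ± 0.23 (SE, log2 scale), with limma adjusted p (Benjamini-Hochberg) of 0.0511 and 0.0266. The Aph1c call was lost without X2401 (limma adjusted p by Benjamini-Hochberg 0.103). A call over the mean need not hold in each genotype. Maml2 was level in IKKβ+/+ mice (1195 ± 205 and 1203 ± 191), and Adam10 was at 1817 ± 236 and 1675 ± 205 in IKKβ-/- mice.

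**Figure D5:**
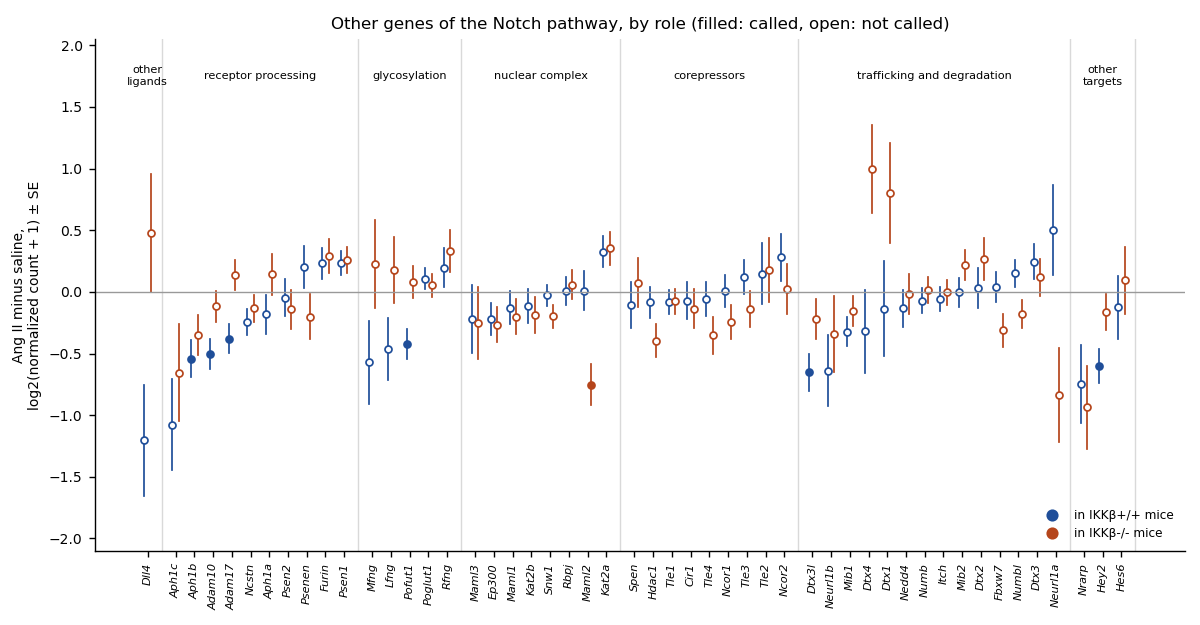
Ang II minus saline difference of log2(normalized count + 1), ± SE, for 50 other genes of the Notch pathway grouped by role, in IKKβ+/+ and IKKβ-/- mice. The 6 filled points in IKKβ+/+ mice (Aph1b, Adam10, Adam17, Pofut1, Dtx3l and Hey2) all lie below 0, and Maml2 at -0.75 is the filled point in IKKβ-/- mice.

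Of the 10 genes, 6 overlap another gene in the Gencode M21 annotation of GRCm38, 9 such genes in all. The 5 of these in the table had at most 25.2 normalized counts in any mouse. The long noncoding gene on the opposite strand of Dll1, A930024N18Rik, was not analysed here, and the libraries were stranded, so that its reads could enter the Dll1 count only if strand was left out of the counting, a setting not given in the sources used here.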

How the data were processed

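RNA of the SRA of 19 mice was sequenced as poly(A) libraries. The authors used Trimmomatic 0.35 on the single-end reads and STAR 2.7.1a for alignment to GRCm38, counted reads per Gencode gene, and used DESeq2 1.30.1 for normalization (RSEM is also named). The study calls the libraries stranded, and the strand setting of the counting is not given in the sources used here. The deposited signal is thus reads over a size factor, and 100% of its values were whole multiples of 1 read within 0.01 of a read. All per-sample columns were used.

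Values were taken as log2(normalized count + 1) and fitted in R 4.3.3 with limma 3.58.1 (lmFit, eBayes with a trend), as 4 group means, over the 14845 genes that reached 10 normalized counts in 4 mice or more. The 7 comparisons were two-sided, p-values were adjusted by Benjamini-Hochberg over all genes tested, and calls needed an adjusted p under 0.1 with a fold change over 1.2. At low read numbers the pseudocount pulls fold changes toward 0, and depth limits the precision there. The labels describe separate mice as replicates.

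The 10 genes, the list of 57 other pathway genes and the marker lists were chosen with earlier results of these data known. All 10 genes are named, with the other pathway genes called in any comparison plus Dll4, Rbpj and Hey2, and for each of the 10 the 2 genes with the highest Pearson's r over the mice. Levels per kilobase used exon lengths of Gencode M21, and upstream sequences came from RefSeq (GRCm38.p6).

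Alternatives were a pseudocount of 4, no filter, only the groups compared in the fit, TMM scaling, the recovered reads tested with edgeR 4.0.16 and with DESeq2 1.42.0, thresholds of 0.05 for the adjusted p or 1.5 for the fold change, and each mouse left out. The endothelial marker level as a covariate was added after seeing the data. On simulated data for Ang II in IKKβ+/+ mice (14845 genes, 200 changed by 1 on the log2 scale), limma called 167 of the changed genes and 21 unchanged ones, edgeR 170 and 23, and DESeq2 180 and 48. The changed genes were drawn from those above a floor on the mean count, and each gene had the same dispersion in all groups. Recovery of smaller differences was not measured.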

Additional observations from a re-analysis of the deposited data

Results flagged for a closer look

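Outlying mice were looked for in 108 sets of values, the 10 genes and 17 other pathway genes in 4 groups. In 7 of them 1 mouse lay far from the others of its group, by a rule that chance meets in about 1 of 20 sets. Among Ang II-treated IKKβ-/- mice, X2383 had 1258.8 normalized counts of Notch3, with the next mouse at 709.5, and 70.6 of Jag2, with the next at 122.9. This mouse also had the lowest endothelial marker sum of the 19, 8496 normalized counts. Among saline-infused IKKβ-/- mice, X2403 had 1326.3 normalized counts of Heyl, with the next mouse at 2516.8, and 329.7 of Nrarp, with the next at 209.0, and its endothelial marker sum of 29818 was the highest of that group. Without X2403 the Heyl difference between Ang II and saline in IKKβ-/- mice was -0.13 in place of 0.11 on the log2 scale, and neither was called. In the same group, X2409 had 1095.8 normalized counts of Furin, with the next mouse at 751.1, and X2406 had 1942.1 of Hey2, with the next at 1449.9. Among saline-infused IKKβ+/+ mice, X2373 had 1365.7 normalized counts of Ncstn, with the next mouse at 1137.3.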

How the results depend on the processing

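No paired analysis was possible because the groups share no mouse numbers. Of the 10 genes, 2 were called with Ang II in IKKβ+/+ mice, and 1 with no filter on low values, with an adjusted p under 0.05 or with a fold change over 1.5 (Dll1 in each). With each mouse left out in turn this count was 0 to 3, and it was 0 without X2358. For Ang II in IKKβ-/- mice, where limma called 0, DESeq2 called 1 and leaving mice out gave 0 to 1 (Jag1 without X2409, limma adjusted p by Benjamini-Hochberg 0.0968). For the difference between these effects DESeq2 called 1, and for the genotypes with saline the fit of only these groups called 2. Over both genotypes the 2 calls became 1 with a fold change over 1.5. Of the 50 other pathway genes, the 6 calls with Ang II in IKKβ+/+ mice became 10 with DESeq2 or only these groups, 2 with a fold change over 1.5, and 3 to 8 with mice left out (3 without X2350 or X2358). The 1 call in IKKβ-/- mice became 2 with edgeR, 4 with DESeq2, 3 with the endothelial marker level, and 1 to 5 with mice left out (5 without X2380). The 4 calls between genotypes with saline became 9 with DESeq2, 8 with only these groups, 2 with an adjusted p under 0.05, 1 with a fold change over 1.5, and 0 to 10 with mice left out (0 without X2373, X2403 or X2406, 10 without X2409). With Ang II, DESeq2 called 2 and leaving mice out gave 0 to 2 (2 without X2356). Over both genotypes the 8 calls became 2 with a fold change over 1.5, and over both infusions the 6 calls became 2 with an adjusted p under 0.05, 1 with a fold change over 1.5, and 1 to 8 with mice left out (1 without X2406). Calls among all genes tested moved too. With Ang II in IKKβ+/+ mice the 1286 became 1887 with DESeq2, 1904 with only these groups, and 428 or 444 without X2350 or X2358. In IKKβ-/- mice the 785 became 722 with edgeR, 1164 with DESeq2 and 1038 without X2380. With saline between genotypes the 812 became 1437 with DESeq2 and 1420 with only these groups. With Ang II the 19 became 521 with DESeq2 and 553 without X2356. Over both infusions the 1075 became 356 without X2406. The causes were not tested. No called difference of the 10 genes turned its direction under these settings, while 60 of 1330 values, called or not, did with a mouse left out and 12 of 70 with the endothelial marker level.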
